A study of Caenorhabditis elegans with 2 samples.

Results

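The nuclear genome of Caenorhabditis elegans holds 336 tRNA genes on its autosomes, and ChIP-seq peaks of the nuclear hormone receptor NHR-77 were examined at each of them. A gene was taken as a member when a peak summit of the list called on both replicates pooled lay from 1000 bp upstream to 500 bp downstream of its 5′ end. By this rule 233 of the 336 genes were members (69.3%, exact Clopper-Pearson 95% interval 64.1 to 74.2%), through 200 distinct strongest summits. The other 103 genes had no pooled summit in that window. The presence of a pooled summit therefore chose the members, and their ranks and distances in the pooled list are a description of that list.

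Chromatin immunoprecipitation followed by sequencing was done on whole larvae at the L3 stage, with males and females pooled and the age given as unknown. Strain OP353 was used for both samples, so both carried the unc-119(tm4063) III mutation and the integrated transgene wgIs353, which supplies nhr-77 fused to eGFP. The 2 samples were biological replicates 1 and 2 of 1 group, with no untagged or otherwise treated group beside them. The model has the limits that the tagged protein came from 1 insertion strain and that whole animals mix all tissues. The antibody is labelled nhr-77, which does not say whether the tag or the receptor was its antigen.

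Each replicate and the pool had a relaxed list of 30000 peaks, and the authors' list cut by IDR, the irreproducible discovery rate, held the 590 strongest peaks of the pool. The authors' signal value of a peak was used to rank peaks within a list, with rank 1 the strongest. The median peak of the pooled list was 344 bp wide, whereas the autosomal tRNA genes were 68 to 122 bp long with a median of 72 bp, so a peak reached beyond the gene at its centre. The read depth of the libraries is unknown, and the intervals given cover counting error only.

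tRNA genes are transcribed by RNA polymerase III and carry their promoter inside the transcribed part. The factor TFIIIC binds a pair of internal elements, the A box near the 5′ end and the B box nearer the 3′ end, and places TFIIIB just upstream of the gene, while a run of T after the 3′ end stops the polymerase. NHR-77 belongs to a receptor family known mainly for binding near genes of RNA polymerase II. The annotation was checked against the sequence of the assembly. Each of the 336 genes had a RefSeq tRNA record of the same span, and RefSeq gave the amino acid for 334 of them. The B box core GTTCNA, searched on the gene's own strand in its 3′ part, was found in 97.4% of members, against 95.2% of all autosomal tRNA genes and 97.1% of the tRNA genes on X. An A box was searched near the 5′ end of the gene. It was found in 97.9% of members, against 96.4% of all autosomal tRNA genes and 97.8% of those on X. The run TTTT within 20 bp past the 3′ end was found in 98.3% of members, against 97.9% of all autosomal tRNA genes and 98.9% of those on X.

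The sequences of 6 tRNA genes on chromosomes II, III and V show both internal elements beside the finding that genes of identical sequence cover a wide range of ranks. They are given 5′ to 3′ from the RefSeq genome on WBcel235 (ce11), on the strand of the gene, with the A box and the B box core in capitals. ZK994.t2 and T23F1.t1, for lysine, have the same sequence, and so do T23F1.t2, W09D6.t1 and W09D6.t2, for proline, so 1 copy of each is shown. F10C1.t1, F57F5.t1 and F44A2.t1 are the members in the IDR list whose sequence matched the genome exactly at a single place, and C38C6.t1, for leucine, is another single match with its summit in the gene.
T23F1.t1 (Lys, chrV:15465086-15465158, + strand): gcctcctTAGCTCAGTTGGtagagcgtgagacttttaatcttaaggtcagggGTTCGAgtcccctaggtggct
W09D6.t2 (Pro, chrIII:11066848-11066919, - strand): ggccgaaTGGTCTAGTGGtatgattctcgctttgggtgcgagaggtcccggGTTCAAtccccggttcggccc
F57F5.t1 (Ile, chrV:12002176-12002260, + strand): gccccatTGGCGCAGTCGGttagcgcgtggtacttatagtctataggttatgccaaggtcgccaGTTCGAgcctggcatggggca
F44A2.t1 (Ala, chrV:9318202-9318273, + strand): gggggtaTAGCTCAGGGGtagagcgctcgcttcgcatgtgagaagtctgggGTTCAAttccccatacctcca
F10C1.t1 (Gly, chrII:5782212-5782282, - strand): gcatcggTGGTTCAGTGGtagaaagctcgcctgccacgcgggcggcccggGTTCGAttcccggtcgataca
C38C6.t1 (Leu, chrII:14635335-14635416, - strand): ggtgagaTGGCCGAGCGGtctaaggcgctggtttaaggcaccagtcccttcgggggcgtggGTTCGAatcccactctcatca

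In the sequences shown the A box began at base 8, counted from 1 at the 5′ end of the gene. The B box core began at base 53 in the lysine gene, at base 52 in the proline and alanine genes, at base 51 in F10C1.t1, at base 65 in F57F5.t1 and at base 62 in C38C6.t1. The summit fell on base 26 of T23F1.t1, base 13 of F57F5.t1 and base 6 of C38C6.t1, before the B box in each. It lay 26 bp upstream of W09D6.t2 and 36 bp upstream of F44A2.t1. Upstream of the B box, then, lay the summits of these 5 genes, while that of F10C1.t1 lay past its 3′ end. This order does not hold for all members. F02H6.t1, which has the proline sequence shown, had its summit on base 55, within the B box core.

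Summits were dense at the 5′ ends of autosomal tRNA genes and sparse on both sides. Over all 336 genes, the pooled list had 21.6 summits per 100 bp and 100 genes within 100 bp of the 5′ end, beside 3.60 at 400 to 900 bp from it. That is a ratio of 5.99 for the autosomal tRNA genes, beside 6.78 for the 276 tRNA genes on X and 1.44 for the 17242 autosomal protein coding genes. Coding summits were densest outside these 100 bp, at 2.77 per 100 genes in the 50 bp bin from 200 to 150 bp upstream. The ratio of 1.44 therefore does not count the highest bins of the coding genes. Each replicate on its own also had more summits close to the 5′ end than farther out. The ratio at autosomal tRNA genes was 5.08 in replicate 1 and 4.57 in replicate 2, beside 6.60 in replicate 1 and 5.17 in replicate 2 at X-linked tRNA genes, and 1.41 and 1.43 at autosomal coding genes. The profile did not use the choice of members, since every annotated gene entered it. In the profile of the pool the highest 50 bp bin at autosomal tRNA genes was the first inside the gene, with 15.2 summits per 100 genes, followed by 11.9 in the bin just upstream. These 2 bins had 10.4 and 9.52 in replicate 2, and 11.3 and 12.8 in replicate 1, where the order was turned round.

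**Figure D1:**
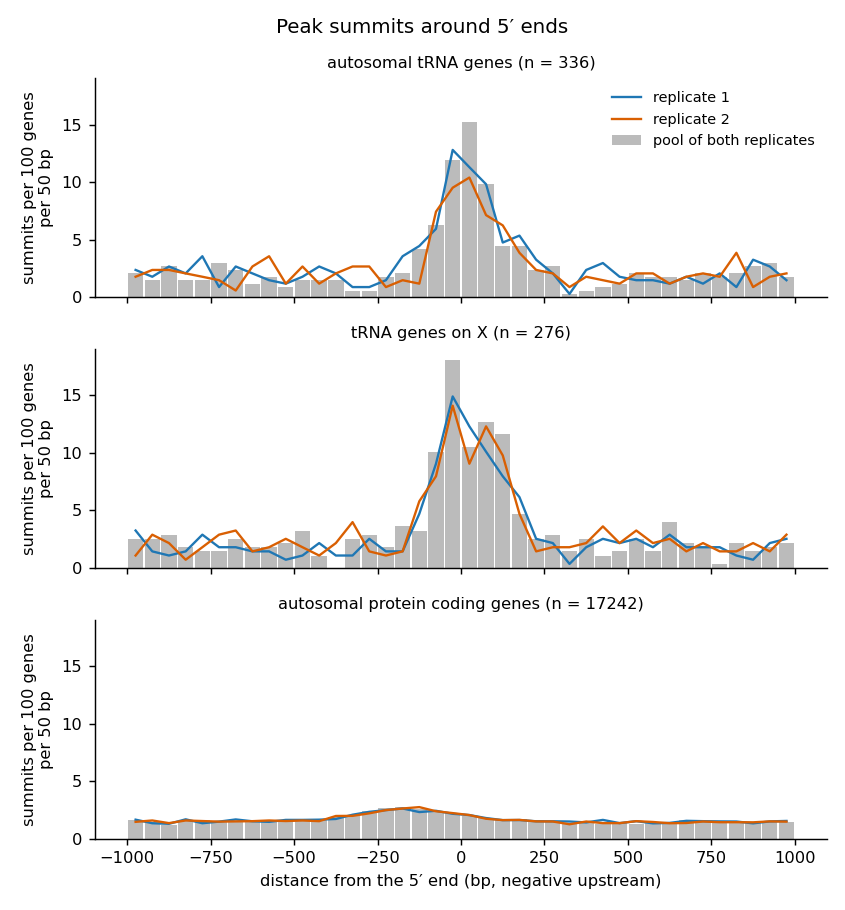
Peak summits per 100 genes in 50 bp bins (vertical axis) against distance from the annotated 5′ end in bp (horizontal axis, negative upstream) for autosomal tRNA genes, tRNA genes on X and autosomal protein coding genes, with bars for the pool and lines for each replicate. Both tRNA panels peak within 100 bp of the 5′ end in the pool and in both replicates. The coding panel has a lower and broader rise, highest between 200 and 100 bp upstream.

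Among the 233 members the strongest summit lay a median of 2 bp downstream of the 5′ end, with quartiles 117 bp upstream and 61 bp downstream, and lay anywhere from 986 bp upstream to 489 bp downstream. The summit was within 100 bp of the 5′ end in 132 members (56.7%, 50 to 63.1%), against 53.6% of the X-linked tRNA genes and 18.2% of the autosomal coding genes with a pooled summit in the same window. It lay upstream in 115 members (49.4%), in the gene in 70 (30%) and past the 3′ end in 48. Among X-linked tRNA genes 54.5% of summits lay upstream and 19.6% in the gene, and among autosomal coding genes 71.1% lay upstream. Over 500 bp away were the summits of 30 members, 2 of them in the IDR list.

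The members with a summit close by had the better median rank. The median pooled rank was 3774 for the 132 members with a summit within 100 bp and 7690 for the other 101. By rank, a summit within 100 bp was found for 8 of 15 members in the IDR list (53.3%), 24 of 39 at ranks 591 to 1500 (61.5%) and 26 of 37 at ranks 1501 to 3000 (70.3%). It was found for 48 of 75 members at ranks 3001 to 10000 (64.0%) and 26 of 67 at ranks 10001 to 30000 (38.8%). The IDR list held both summits nearest to a tRNA 5′ end and summits nearest to that of another kind of gene, as the plot of rank against distance shows.

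**Figure D2:**
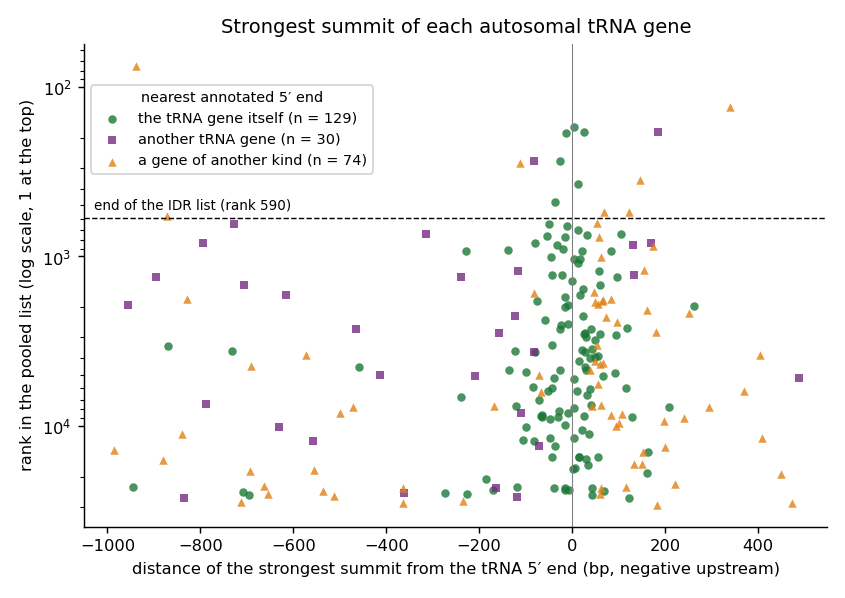
Rank of the strongest summit of each of the 233 members in the pooled list (vertical axis, log scale, 1 at the top) against its distance from the tRNA 5′ end in bp (horizontal axis, negative upstream), with a marker for the kind of gene whose annotated 5′ end is nearest to the summit. The points crowd around 0 bp, and of the 15 members above the line at rank 590, 6 are nearest to their own 5′ end.

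Across all ranks the members had a better median rank in the pooled list than coding genes or all genes. It was poorer than that of the tRNA genes on X, of autosomal snoRNA genes and of autosomal snRNA genes. The members' median rank was 4690 (quartiles 1693 and 11874). Among genes with a pooled summit in the window, it was 2358 for X-linked tRNA genes, 2546 for autosomal snoRNA genes and 2187 for autosomal snRNA genes. For autosomal coding genes it was 10622, and for all nuclear genes 12044. The ranks of members ran from 75 to 29276 and their signal values from 66.5 down to 5.62, with a median of 13.0 beside 8.27 for the whole pooled list. Among the first 1500 peaks were the summits of 54 members (23.2%), against 40.2% of X-linked tRNA genes, 12.3% of autosomal coding genes and 10.4% of all nuclear genes. Among the first 3000 were those of 91 members (39.1%), against 54.9% of X-linked tRNA genes, 20.8% of autosomal coding genes and 17.6% of all nuclear genes.

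The IDR list held the summits of 15 members, which is 6.44% of 233 (3.65 to 10.4%), through 12 peaks that make up 2.03% of that list. The share over all nuclear genes with a pooled summit in the window was 4.63%, over all autosomal genes 4.5% and over autosomal coding genes 5.82%, each inside the members' interval. It was 19.2% (14.3 to 25%) over X-linked tRNA genes, 27.8% over autosomal snoRNA genes and 30.4% over autosomal snRNA genes. Both the members and these shares come from the pooled list, so none of the differences given between genes, places or ranks was tested. Of the 233 members, 218 had their strongest summit below the IDR list.

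The same shape was seen when summits instead of genes were counted. Bases in an autosomal tRNA gene or within 100 bp of it made up 0.110% of the autosomal sequence. They held 161 of the 24753 autosomal summits of the pool (0.650%), 152 of 24587 in replicate 1 (0.618%) and 135 of 24616 in replicate 2 (0.548%). In the pool the share was 1.68% (0.730 to 3.29%) at ranks 1 to 590, 3.52% (2.31 to 5.11%) at ranks 591 to 1500 and 2.32% at ranks 1501 to 3000. From there it fell with rank, to 0.194% (0.111 to 0.315%) at ranks 20001 to 30000. In replicate 1 the first ranks had the highest share, 3.00% (1.65 to 4.98%), and in replicate 2 likewise, 1.76% (0.762 to 3.43%). The dip at the top of the pooled list was not seen in either replicate, and the intervals of its first 3 rank ranges overlapped. On X, where tRNA genes with these flanks made up 0.419% of the sequence, the share at ranks 1 to 590 of the pool was 24.3% and fell to 1.15% at the last ranks.

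**Figure D3:**
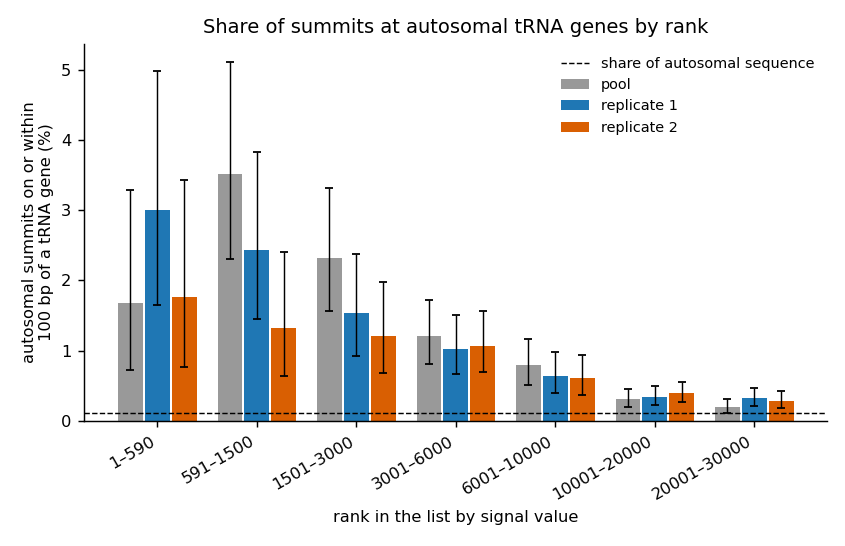
Share of autosomal summits in or within 100 bp of an autosomal tRNA gene (vertical axis, percent) by rank range (horizontal axis) in the pool, replicate 1 and replicate 2, with exact Clopper-Pearson 95% intervals as error bars and the share of autosomal sequence as a dashed line at 0.110%. The shares are highest among the first 3000 ranks and come down towards the dashed line in all 3 lists.

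The pair of strongest members, and the weakest one in the IDR list, had summits that lay nearer to a snoRNA gene, which guides modification of other RNAs, than to the tRNA gene. ZK994.t2, a lysine tRNA gene at chrV:8499564-8499636 on the - strand, in an intron of pxn-1, which encodes a peroxidasin, had the best rank, 75, with signal 66.5. That summit was 938 bp upstream of the tRNA gene and 5 bp from the 5′ end of the snoRNA gene ZK994.7, and it ranked 119 in replicate 1 (signal 30.2) and 85 in replicate 2 (signal 35.6). C16D9.t4, a tyrosine tRNA gene at chrV:8247481-8247564 between coding genes, had rank 131 and signal 53.3, from a summit 341 bp past its start and 139 bp from that of the snoRNA gene C16D9.10. This summit ranked 189 in replicate 1 (signal 25.1) and 190 in replicate 2 (signal 25.4). T19C4.t1, a leucine tRNA gene at chrV:11174790-11174873 in an intron of gpa-1, which encodes a G protein alpha subunit, had rank 579 and signal 29.1 from a summit 872 bp upstream, 39 bp from the snoRNA gene T19C4.12. The rank of that summit was 843 in replicate 1, with no summit of replicate 2 within 100 bp and one at rank 1163 that lay 112 bp away, and the summit nearest to T19C4.t1 itself, 37 bp upstream, ranked 8622 in the pool. These 3 were the only members whose summit was nearest to a snoRNA gene, and the 3 were all in the IDR list.

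At 2 further IDR members the nearest 5′ end was that of another RNA gene. M01E5.t1, a lysine tRNA gene at chrI:13297673-13297745, had rank 282 and signal 39.4 from a summit 112 bp upstream, 20 bp from sls-2.9, a gene for the SL2 RNA that is joined to messages by trans-splicing. It ranked 280 in replicate 1 and 708 in replicate 2. F10C1.t1, shown above, had rank 354 and signal 35.9 from a summit 147 bp past its start, beyond its 3′ end, 22 bp from the 5′ end of linc-44 and 385 bp upstream of K05F1.6. Its summit ranked 1308 in replicate 1 (signal 12.3) and 232 in replicate 2 (signal 23.0). At both genes, then, 1 replicate put the summit inside its own first 590 and the other outside.

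The tRNA gene itself had the nearest 5′ end at the summits of 6 IDR members. F35H8.t1, an arginine tRNA gene at chrII:9566241-9566313 between coding genes, had rank 171 and signal 48.3 with the summit 4 bp inside the gene, at rank 205 in replicate 1 (signal 24.4) and 364 in replicate 2 (signal 19.3). C37A2.t1, a cysteine tRNA gene at chrI:6781803-6781874 in an intron of cye-1, which encodes cyclin E, had rank 186 and signal 47.3 with the summit 13 bp upstream, at rank 384 in replicate 1 and 158 in replicate 2. In both genes the summit shared no coding promoter window and was among the first 590 of each replicate. F57F5.t1, for isoleucine, had rank 375 and signal 34.9 with the summit 12 bp inside the gene, at rank 741 in replicate 1 and 1396 in replicate 2. F44A2.t1, for alanine, had rank 477 and signal 31.6 with the summit 36 bp upstream, at rank 295 in replicate 1 and 2204 in replicate 2. F57F5.t1 was thus outside the first 590 of each replicate, and F44A2.t1 inside it in replicate 1 alone.

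Pairs of neighbouring tRNA genes shared a peak at 3 places of the IDR list. The peak at chrV:15464939-15465282 had rank 183 and signal 47.5, and its summit lay 25 bp inside the lysine gene T23F1.t1 and 185 bp past the start of the proline gene T23F1.t2, which runs the other way. It ranked 216 in replicate 1 (signal 24.0) and 199 in replicate 2 (signal 24.9). A second summit, 14 bp upstream of T23F1.t2, ranked 4660 in the pool with signal 13.0. The peak at chrIII:11066773-11067116, in an intron of the spindle assembly gene rsa-2, had rank 273 and signal 39.7 between the divergent proline genes W09D6.t2 and W09D6.t1, 26 and 82 bp upstream of them, and ranked 653 in replicate 1 and 308 in replicate 2. The peak at chrIII:1604478-1604821 had rank 543 at the methionine gene Y22D7AL.t3 and the glutamate gene Y22D7AL.t4, and its summit was 14 bp from the 5′ end of the noncoding RNA gene Y22D7AL.17. Its ranks were 1094 in replicate 1 and 697 in replicate 2. Of the 3 shared peaks, the one at T23F1.t1 was thus in the first 590 of both replicates and the one at Y22D7AL.t3 in neither.

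Just outside the IDR list came 5 members through 4 summits on chromosome IV, beside T19C4.t1 at rank 579 just inside it. The proline gene F02H6.t1 (chrIV:14225102-14225173) had rank 633 and signal 28.0 with the summit 54 bp inside the gene. The glutamine gene F08G5.t2 (chrIV:12417249-12417320) and the arginine gene F08G5.t1 (chrIV:12417926-12417998) shared rank 643 and signal 27.9, with the summit 727 and 49 bp upstream of them. B0212.t1 (chrIV:3552189-3552260), for proline, in an intron of the channel gene osm-9, had rank 660 and signal 27.6 with the summit 11 bp upstream, and the lysine gene B0350.t1 (chrIV:5967160-5967232) had rank 701 and signal 26.8 with the summit 13 bp inside. In signal they differ little from the lowest IDR peak, at 28.9. In the replicates B0212.t1 ranked 347 in replicate 1 and 2283 in replicate 2, and B0350.t1 510 in replicate 1 and 3051 in replicate 2. F02H6.t1 ranked 1328 in replicate 1 and 691 in replicate 2, and the summit shared by F08G5.t1 and F08G5.t2 18262 in replicate 1 and 1898 in replicate 2. Replicate 1 also had a summit at rank 616 in the windows of both F08G5 genes, but 157 bp from the pooled summit and so beyond the 100 bp that counted as a match.

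The summit nearest to its own 5′ end among members in the first 3000 ranks was that of C27A12.t1, a leucine gene at chrI:6051155-6051236, 1 bp inside the gene at rank 1389 with signal 20.2. It ranked 2820 in replicate 1 and 3125 in replicate 2, and it also lay 784 bp upstream of the homeobox gene ceh-2. F35H8.t1 came next at 4 bp. C38C6.t1, in an intron of the chemoreceptor gene sre-13, followed at 5 bp, with rank 1039 and signal 23.0, and ranked 2267 in replicate 1 and 984 in replicate 2. A summit centred on the tRNA 5′ end was therefore found at a wide range of ranks.

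Over all members, the annotated 5′ end nearest to the strongest summit was that of the gene itself in 129, that of another tRNA gene in 30 and that of a gene of another kind in 74. The last set was led by noncoding RNA genes, with 51 members, of which 2 were in the IDR list. In 27 of the 74 the summit was still within 100 bp of the tRNA 5′ end, 24 of them among the 51. Protein coding genes were nearest for 13 members, with none in the IDR list, piRNA genes for 3, snoRNA genes for 3, long intergenic RNA genes for 2, and an snRNA gene and a pseudogene for 1 each. Where the gene itself was nearest, 6 of 129 members were in the IDR list (4.65%, 1.73 to 9.85%), and where a gene of another kind was nearest, 7 of 74 were (9.46%, 3.89 to 18.5%).

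Most members, like most annotated autosomal tRNA genes, were inside the introns of protein coding genes. Of the 233, 135 lay in an intron (57.9%), 95 lay between coding genes and 3 overlapped a coding exon. The annotated genes in those places were 188, 139 and 9. Members were 71.8% (64.8 to 78.1%) of the intronic genes and 68.3% (59.9 to 76%) of those between coding genes. The host gene was on the same strand for 83 of the intronic members. The median pooled rank was 5090 for intronic members and 2861 for members between coding genes. The IDR list held 5 of the 135 intronic members (3.70%, 1.21 to 8.43%) and 10 of the 95 between coding genes (10.5%, 5.16 to 18.5%). The 2 intervals overlap. Among X-linked tRNA genes 33.5% of those with a pooled summit were intronic, and the IDR share was 16% in introns and 20.3% between coding genes.

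The strongest summit of 86 members (36.9%) also lay in the promoter window of a protein coding gene, defined by the same 1000 bp upstream and 500 bp downstream. Counted as distinct summits, 74 of 200 did (37.0%), close to the 38.8% of all autosomal summits in the pool. Of the 12 IDR summits at members 5 lay in a coding window (41.7%, 15.2 to 72.3%), beside 328 of the 475 autosomal IDR summits (69.1%, 64.7 to 73.2%), a difference that so few summits do not resolve. The 86 shared members had a median rank of 4940 and 7 IDR members (8.14%), and the 147 others a median rank of 4668 and 8 IDR members (5.44%). In 64 of the 86 the 5′ end of the tRNA gene was nearer to the summit than any coding 5′ end, including all 7 in the IDR list, and in 44 the coding gene was also the host.

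The members were also split by place and coding window at the same time. The IDR share for either factor alone is a weighted mean of the shares in this finer split. A spread of shares at least as wide therefore follows by construction. Of the 36 members between coding genes that shared a coding window, 7 were in the IDR list (19.4%, 8.19 to 36.0%) and the median rank was 1878. Of the 59 between coding genes without such a window 3 were (5.08%) at a median rank of 5213, and of the 87 intronic members without one 5 were (5.75%) at a median rank of 4521. None of the 48 intronic members with a coding window was, and their median rank was 7617. The 7 include both genes of the T23F1 pair, whose summit lay 566 bp upstream of pqn-71 and 609 bp upstream of rocf-1, and both genes of the Y22D7AL pair, 276 bp upstream of Y22D7AL.6, so the 7 rest on 5 summits. The others were F10C1.t1, F57F5.t1, with the summit 865 bp upstream of the cysteine protease gene cpr-9 and 391 bp upstream of the guanylate cyclase gene gcy-33, and F44A2.t1, 145 bp upstream of kvs-3, which encodes a potassium channel subunit. This split was chosen after its values were seen.

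A larger share of neighbouring tRNA genes than of single ones had a pooled summit. Of the 101 annotated genes with another tRNA gene within 1000 bp, 84 were members (83.2%, 74.4 to 89.9%), against 149 of the 235 others (63.4%, 56.9 to 69.6%). Their windows overlap, so 1 summit can make several of them members. The 200 distinct summits include 31 that served more than 1 member, 29 of them 2 members and 2 of them 3, which took in 64 members. A single summit lay in the window of 164 members, and 69 members had several, up to 3. In the IDR list were 6 of the clustered members (7.14%) and 9 of the others (6.04%).

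By amino acid, the 233 members covered 21 families, and 11 of these had a member in the IDR list. Lysine genes had the best median rank, 1279, with 21 members of 28 annotated and 3 in the IDR list, and 12 of the 21 among the first 3000 ranks. The summit was within 100 bp of the 5′ end in 10 of the 21 (47.6%). Of the 3 in the IDR list, ZK994.t2 and M01E5.t1 had summits nearest to another RNA gene. Proline genes also had 3 members in the IDR list, of 16 members and 22 annotated, but a median rank of 6124. These were T23F1.t2, through the summit inside T23F1.t1, and the W09D6 pair, through a shared peak. Threonine had 19 members of 20 annotated and a median rank of 2999, with its best at 740 and none in the IDR list. At the other end, valine had 7 members of 17 annotated, and asparagine 7 of 14 with a best rank of 4521. The gene for selenocysteine tRNA, K11H12.t1 (chrIV:658181-658266), which serves to insert that amino acid at a stop codon, had its summit 31 bp inside the gene at rank 15642. It ranked 12823 in replicate 1 and 14104 in replicate 2.

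**Figure D4:**
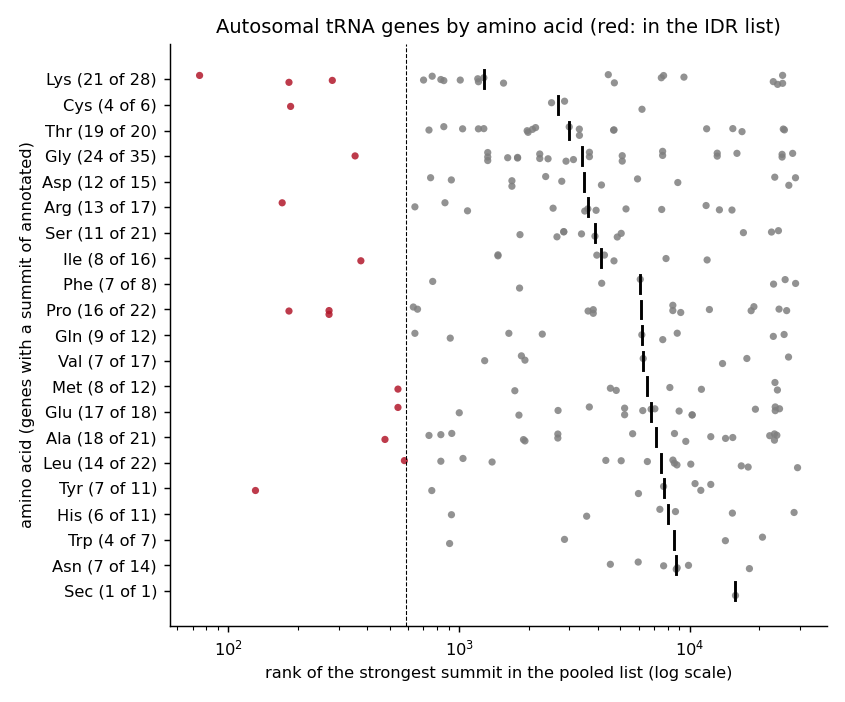
Rank of the strongest pooled summit (horizontal axis, log scale) of each member by amino acid (vertical axis, sorted by median rank, with the number of members of the annotated genes in brackets). Each point is a gene, red in the IDR list, black bars are medians and the dashed line is rank 590, and the families overlap widely in rank.

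Members with identical sequences covered a wide range of ranks, though neighbours such as W09D6.t1 and W09D6.t2 shared a rank through 1 peak. The lysine sequence shown for T23F1.t1 matched the genome exactly at 14 places, 9 autosomal genes and 5 on X. Of the 9 autosomal genes, 7 were members, at ranks from 75 to 22978 with a median of 833, and 2 were in the IDR list. In 5 of the 7 the summit was within 100 bp of the 5′ end, and the one at rank 75, of ZK994.t2, was the summit 938 bp away described above. The proline sequence shown for W09D6.t2 matched at 24 places, 11 autosomal genes and 13 on X, and its 9 autosomal members ranged from rank 183 to 24341 with a median of 3621. In 4 of these 9 the summit was within 100 bp of the 5′ end, and in the others it lay farther away. This distance does not say whether the peak overlaps the gene, as the peak of T23F1.t2 does. How reads that match several places were treated is not given in the sources used here.

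Copy number moved with the share of members and with rank. Of the 85 autosomal tRNA genes with a single exact match in the genome, 44 were members (51.8%, 40.7 to 62.7%), against 35 of the 51 with 2 to 5 matches (68.6%) and 154 of the 200 with more than 5 (77%, 70.5 to 82.6%). The median ranks were 8504 for single matches, 6094 for 2 to 5 and 3881 for more than 5. The IDR share did not follow this order, with 3 of 44 (6.82%), 3 of 35 (8.57%) and 9 of 154 (5.84%). On X the median rank was 5499 for genes with a single match and 2063 for those with more than 5. The part of read placement in this was not tested.

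In the replicates, a summit within 100 bp of the pooled one was found for 144 of the 200 distinct summits in replicate 1, 124 in replicate 2 and 90 in both (45.0%, 38.0 to 52.2%), and for 22 in neither. The share found in both was 13.9% over all 24753 autosomal summits of the pool. That set holds every relaxed peak, while the members' set holds the strongest summit of each window. Median signal was 13.0 for members and 8.27 for the whole pooled list, so the 2 shares do not compare summits of like rank. For the 12 IDR summits 11 were found in both (91.7%), against 89.5% of the 475 autosomal IDR summits, and for the 188 members' summits below that list 79 were (42.0%, 34.9 to 49.4%). The replicates make up the pool, so some recovery follows by construction. Among the 90 summits found in both, ranks in replicate 1 and replicate 2 had Spearman's rho of 0.36, with 47 better in replicate 1 and 43 in replicate 2. Over the 79 below the IDR list rho was 0.14, as a description over summits of the same 2 libraries. Over all 3450 autosomal summits of the pool found in both it was 0.43.

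The 200 distinct summits of members were also placed in the first 590 ranks of each replicate. In replicate 1, 17 of the 200 were among the first 590, in replicate 2, 11, and in both, 5, which belong to ZK994.t2, C16D9.t4, F35H8.t1, C37A2.t1 and the pair T23F1.t1 and T23F1.t2. Over all 24753 autosomal summits of the pool, 455 were in the first 590 of replicate 1 and 431 in that of replicate 2. That set holds every relaxed peak and not only the strongest in a window. Its count in the first 590 of both replicates is not given here, so no background stands beside the 5. Of the 12 IDR summits 3 were among the first 590 of neither. Below the IDR list 10 were among the first 590 of replicate 1 and 4 of replicate 2, and none of both. Taken alone, replicate 1 had a summit in the window of 244 autosomal tRNA genes at a median rank of 6737, with 20 genes in its first 590 (8.20%), and replicate 2 had one for 224 genes at a median rank of 6894, with 15 in its first 590 (6.70%). The same shares were 4.4% in replicate 1 and 3.99% in replicate 2 over all nuclear genes with a summit in the window. Over autosomal coding genes they were 5.11% and 5.25%, and over X-linked tRNA genes 18.7% and 18.3%. The median ranks of X-linked tRNA genes were 3230 in replicate 1 and 4155 in replicate 2, and those of autosomal coding genes 11366 and 11104.

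**Figure D5:**
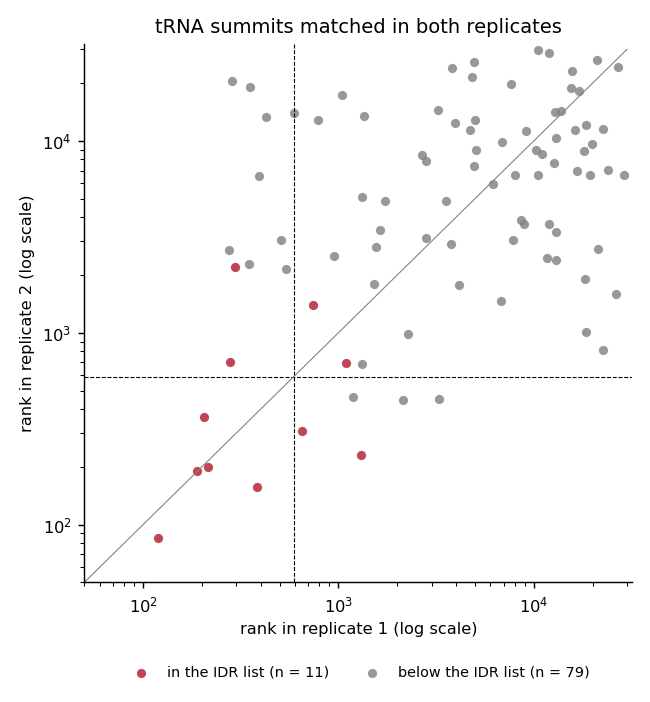
Rank in replicate 1 (horizontal axis, log scale) and replicate 2 (vertical axis, log scale) of the 90 distinct member summits matched within 100 bp in both lists, red for the IDR list and grey below it. Dashed lines mark rank 590 and the diagonal equal ranks, and 5 summits, each red, lie below 590 in both.

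By chromosome, there were 45 members of 66 annotated genes on I, 47 of 57 on II, 49 of 64 on III, 41 of 71 on IV and 51 of 78 on V. The IDR list held 2 members on I, 2 on II, 4 on III, none on IV and 7 on V. Chromosome IV had the lowest share of members, 57.7% (45.4 to 69.4%), yet the best median rank among its members, 2861, and 22 of its 41 were among the first 3000 ranks. Chromosome V had the most IDR members, 7 of 51 (13.7%, 5.7 to 26.3%), beside 6.44% over all members, and a median rank of 6094. These 7 include ZK994.t2, C16D9.t4 and T19C4.t1, with summits nearest to a snoRNA gene, and the T23F1 pair, which shares a peak. The 4 on III were the W09D6 and Y22D7AL pairs, each sharing a peak. The IDR share over all genes of each chromosome is not given here.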

How the data were processed

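Peaks were taken from narrowPeak lists on ce11 that the authors called on each replicate and on the pool, and from their IDR list, per the labels and the deposited inventory texts. What the aligner, caller, versions, IDR threshold and handling of reads with several matches were is not given in the sources used here. Signal values, the authors' own per peak, ranked peaks within a list. The deposited −log10 q-value and the ce10 lists were not used. The depth of the libraries is unknown.

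Genes came from Ensembl release 115, and sequences and amino acids from RefSeq on WBcel235. Per gene, the strongest summit in the window was kept. A replicate summit within 100 bp counted as the same. Exact genome matches were counted on both strands. Introns and hosts were those of protein coding genes on either strand. Python 3.11.15, pandas 2.3.3, numpy 2.4.6 and scipy 1.17.1 were used, and the counting was tested on simulated data. No test was run, because there is 1 group, genes are not replicates and the pooled list chose the members.

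The members, gene groups and measures were chosen with earlier results of these data known, and the rank ranges, the 100 bp and 400 to 900 bp zones of the profile and the splits by copies and by place with coding window were set after a first look at the lists. Named by rule were members in the IDR list, the 5 just outside it, the 3 best without a coding window, the 3 nearest to their 5′ end within the IDR list or the first 3000 ranks, and the 3 best in both replicates, with their coding hosts and coding windows. K11H12.t1 was named after its values were seen. Alternatives changed the window, list, threshold, match distance, host strand and clustering distance.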

Additional observations from a re-analysis of the deposited data

How the results depend on the processing

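Of 34 alternatives 18 left the value within its spread. For shares the spread was the exact interval, and for median rank and distance it was the SD of the 2 replicate values. That SD sets the replicates against each other, so it does not measure the spread of a pooled value. The IDR share of 6.44% became 15.9% with the first 1000 pooled peaks in place of the IDR list, and 3.86 to 8.20% under the other alternatives, 6.70 to 8.20% with 1 replicate alone. The median rank of 4690 became 4820 with a symmetric 500 bp window, 5090 for the summit nearest to the 5′ end, 8504 for genes with a single exact match and 6737 to 6894 with 1 replicate alone, beside an SD of 111 between replicates. The median distance of 2 bp changed sign. It became 18 bp with the symmetric window, -13.5 bp with 500 bp upstream and 100 bp downstream, -59 bp for single matches and -16 to -6.5 bp with 1 replicate alone, so upstream or downstream is not settled. A coding window was shared by 27% within 500 bp on either side, against 36.9%. Recovery in both replicates was 23.0% at 50 bp and 58.0% at 200 bp, against 45.0%. Intronic members were 35.6% with hosts on the same strand, against 57.9%, and clustered members 21.5% at 500 bp, against 36.1%. The settings for single matches, and for a summit in the gene or within 100 bp of it, were chosen after seeing the data. Replicate shares of coding windows ran from 35.2 to 35.7%.

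No paired analysis was possible because the samples form 1 group. Without depth, control signal or another strain, a summit at a tRNA gene cannot be set against a background of the assay here.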

Other observations

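The 103 autosomal tRNA genes without a pooled summit in the window had their nearest pooled summit a median of 2519 bp from the 5′ end, from 523 to 21296 bp. In the single lists 40 of them had a replicate 1 summit in the window, 34 a replicate 2 summit, 12 both and 41 neither. The best of these was F08G5.t3, a glutamine gene at chrIV:12416942-12417013 in the cluster of F08G5.t1 and F08G5.t2, at rank 616 in replicate 1, 877 bp upstream, and rank 1898 in replicate 2, 954 bp upstream. It was chosen after its values were seen. The nearest pooled summit was 1034 bp from its 5′ end, just outside the window.

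Of the members, 168 had a summit of both replicates in the window and 7 of neither, so those 7 rest on the pooled calls alone. An A box was not found in 5 members, whose best rank was 1791 and median rank 23809, and the B box core was not found in 6, among them Y22D7AL.t3 at rank 543. No match says only that these letters were not found in the part of the gene that was searched.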
